A study of Homo sapiens with 3 samples.

Results

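TXNIP encodes thioredoxin-interacting protein, one of the alpha-arrestins. The 8 genes described here are TXNIP, the related alpha-arrestin genes ARRDC1, ARRDC2, ARRDC3 and ARRDC4, the transcription factor genes MLX and MLXIP, and TXN, which encodes thioredoxin. They were chosen by symbol, and the choice was made knowing that TXNIP and ARRDC4 were high in these data. All 8 had a row among the 12040 gene symbols of the authors' deposited table, so none was lost to a filter. ARRDC5, a further ARRDC gene, is not among the 8 and had no row. The values that drew attention to them are given as a description and support no test.

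Alpha-arrestins are adaptor proteins that bring ubiquitin ligases of the NEDD4 family to membrane proteins. TXNIP and ARRDC4 restrain glucose uptake, and TXNIP also binds thioredoxin, the small protein that keeps protein thiols reduced. Transcription of TXNIP and ARRDC4 is known to follow the glucose supply through MondoA, the product of MLXIP, and its partner MLX, which bind paired E-boxes in promoters. TXNIP is also a known target of the miR-17 family of microRNAs, whose maturation needs DROSHA and then DICER1.

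The cells were HEK293, a human line of embryonic kidney origin, in a T-REx Flp-In version with a FLAG-tagged DICER1 transgene. All groups carry the transgene, and the sources used here do not give whether it was switched on. Each of the 3 groups had 1 library of poly(A) RNA: cells with RNA interference against DICER1, cells with RNA interference against DROSHA, and mock-transfected cells. The design treats the last 2 as controls for the first. Each title carries 2.5d, which is not explained.

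The authors' deposited table has no header. Its 2 columns of log2 fold changes share 1 denominator library, and no name ties either of them to a group. They are called the first and the second comparison, with a first and a second numerator library. In the authors' deposited table DICER1 had log2 fold changes of -1.32 in the first and 0.58 in the second comparison, and DROSHA had -0.11 and -1.65. DICER1 was thus low in the first numerator and DROSHA in the second, which describes the columns and was not used to name them. Of 8 markers known from HEK293 cells 6 had a row and NEFM and PAX2 had none, while none of 7 markers of blood, liver, endothelium and fibroblasts had a row. The 6 markers ran from -0.10 (KRT8) to 1.05 (INA) in the first and from -0.57 (INA) to 0.12 (CDH2) in the second comparison, and their part in the results was not tested.

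The promoters of TXNIP and ARRDC4 are shown because these were the members with the largest changes and are the ones known to be driven through E-boxes. Both are RefSeq sequences of 300 bases on GRCh38.p14, a later build than the hg19 of the submitters' processing notes, running from 250 bases before the annotated start to 50 bases from it on. The TXNIP window is chr1:145996530-145996829 on the minus strand and the ARRDC4 window chr15:97960453-97960752 on the plus strand. Capitals mark each match to CACGNG on either strand, a motif that includes the E-box CACGTG.
TXNIP promoter: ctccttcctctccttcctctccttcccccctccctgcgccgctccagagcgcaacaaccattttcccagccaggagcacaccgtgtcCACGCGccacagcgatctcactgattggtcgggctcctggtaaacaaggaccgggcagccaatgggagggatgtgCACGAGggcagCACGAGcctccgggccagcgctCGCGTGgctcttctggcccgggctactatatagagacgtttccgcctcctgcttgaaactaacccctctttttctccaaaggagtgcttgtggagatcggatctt
ARRDC4 promoter: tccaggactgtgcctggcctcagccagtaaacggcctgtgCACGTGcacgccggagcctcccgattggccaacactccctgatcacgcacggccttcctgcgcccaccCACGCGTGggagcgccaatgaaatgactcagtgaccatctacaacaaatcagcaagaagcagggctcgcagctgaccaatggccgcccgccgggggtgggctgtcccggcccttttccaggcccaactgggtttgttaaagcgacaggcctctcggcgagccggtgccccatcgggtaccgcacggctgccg

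The TXNIP promoter held 4 such boxes, beginning 163, 88, 77 and 55 bases before the start. The boxes at 88 and 77 bases have 5 bases between them, the spacing of the carbohydrate response element that MondoA and MLX bind. Among all 35116 RefSeq promoter windows of this length, 27 (0.0769%) held 2 CACGNG boxes 5 bases apart, and 10705 (30.5%) held at least 1 box. Among the 12802 windows of genes in the authors' deposited table the shares were higher, at 0.117% and 40.6%. ARRDC4 had 3 boxes, beginning 210, 142 and 140 bases before the start, of which the last 2 overlap. The ARRDC4 box 210 bases before the start is the palindrome CACGTG, which 7.26% of all windows and 9.51% of those of listed genes held. No pair with 5 bases between was found in the ARRDC4 window, which says only that these letters are not in it.

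Each of the 8 genes had a promoter in the RefSeq table, and TXNIP, ARRDC2 and ARRDC3 had a second one. In the first-listed promoters ARRDC2 held 3 boxes, MLX 1 (the palindrome, 50 bases before the start) and TXN 1, while ARRDC1, ARRDC3 and MLXIP held none. The second promoter of ARRDC3 held 1 box, 193 bases before its start, and those of TXNIP and ARRDC2 held none. Boxes reading CCAAT on either strand, the motif of the factor NF-Y, numbered 2 in the TXNIP window and 3 in the ARRDC4 window. The first-listed windows of ARRDC1, ARRDC3, MLX and MLXIP held 1 each, and those of ARRDC2 and TXN held none. The second ARRDC2 window held 1 CCAAT box, and the second windows of TXNIP and ARRDC3 held none. Of all windows 34.6% held at least 1 CCAAT box. A letter match is no evidence that a factor binds there, and binding was not measured.

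**Figure D1:**
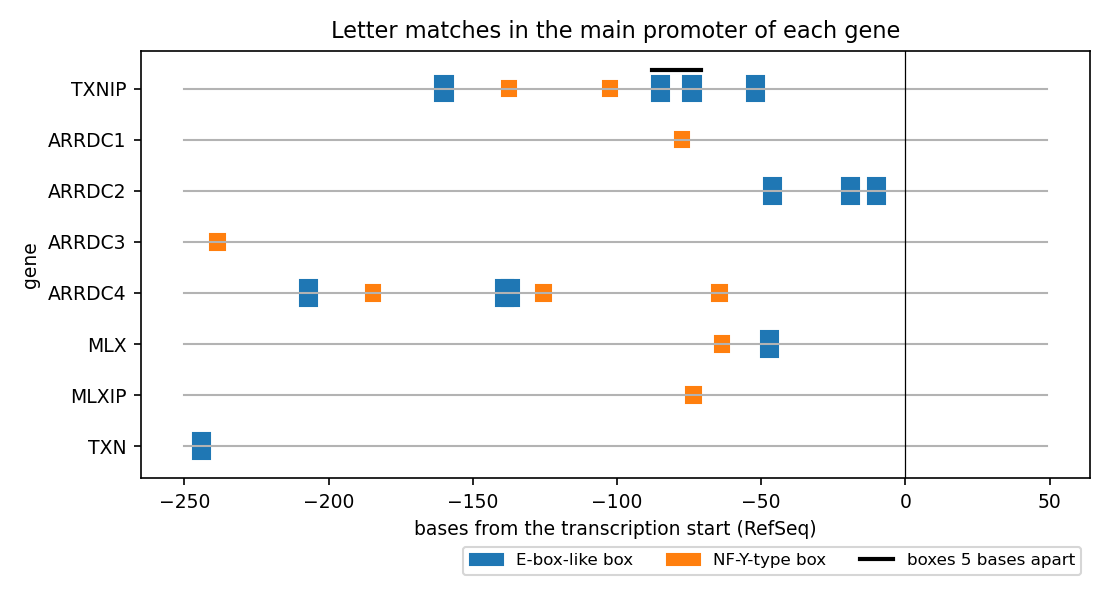
Positions of E-box-like boxes (blue) and NF-Y-type boxes (orange) in the first-listed RefSeq promoter of each gene, with distance in bases from the transcription start on the x axis and 1 line per gene. The black bar marks the boxes of TXNIP that lie 5 bases apart, 88 to 72 bases before its start, and no other gene shown has such a bar.

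TXNIP had the highest log2 fold change of the 8 genes in both comparisons. The authors' deposited table gave it 1.28 in the first and 0.81 in the second comparison, ratios of 2.43 and 1.76. The authors had added 1 to each level before the ratio was taken, so these values understate the change of a gene with low levels. Both numerator libraries thus exceeded the shared denominator. This placed TXNIP 11th and 26th from the highest of 12040 genes, in the top 0.0914% and 0.216%.

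ARRDC4, which like TXNIP restrains glucose uptake, had the same order of libraries. The authors' deposited table listed it at 1.13 and 0.52, ratios of 2.19 and 1.43. The denominator was again the lowest library and the first numerator the highest. ARRDC4 ranked 15th and 245th from the highest of all genes.

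A gene is called here where its log2 fold change is at least 1 in size, a 2-fold difference. Since every group is a single library, no spread between replicates, test or p-value can be given, and whether groups would overlap is unknown. In bulk RNA, fewer cells of a type and less RNA per cell also cannot be told apart. In the first comparison TXNIP and ARRDC4 of the 8 genes were called higher, where 0.174% of all genes were, and none was called lower, where 0.166% were. In the second comparison none of the 8 was called, against 0.0831% of all genes higher and 0.748% lower. Since the genes were chosen knowing these values, nothing is read from the difference between the members' share and the background.

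With the threshold at 0.5, TXNIP, ARRDC4 and ARRDC2 passed upwards in the first comparison (1.46% of all genes), and TXNIP and ARRDC4 in the second (2.33%). None of the 8 passed downwards at 0.5, where 2.04% of all genes did in the first and 5.59% in the second comparison. The 8 genes had a median of 0.36 for the first comparison, and for the second it was 0.07. Over all 12040 genes the medians were 0.03 and 0.0063, with a spread (SD over genes) of 0.227 and 0.298.

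**Figure D2:**
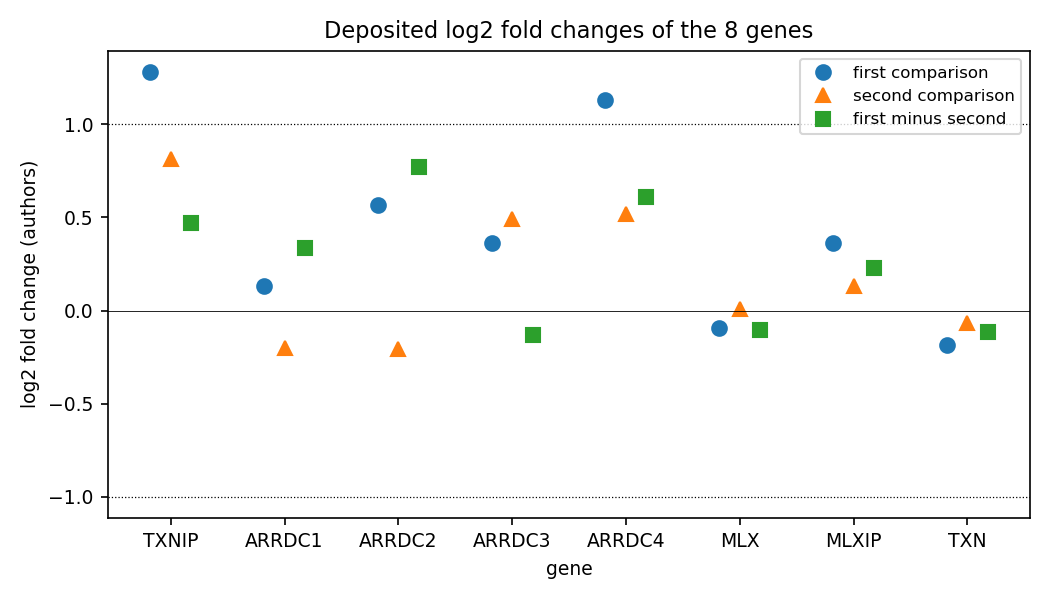
Authors' log2 fold change (y axis) of each of the 8 genes (x axis) in the first comparison (circles) and the second (triangles), with the first minus the second as squares and dotted lines at 1 and -1. TXNIP (1.28) and ARRDC4 (1.13) pass 1 in the first comparison, and no other symbol does.

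Both comparisons divide by the same library, so a low TXNIP or ARRDC4 level in that library alone would raise both fold changes, and this cannot be told apart from a rise in each numerator. The denominator cancels in the first log2 fold change minus the second, which is the log2 ratio of the numerators. That log2 ratio was 0.47 for TXNIP and 0.61 for ARRDC4, so both were higher in the first numerator. None of the 8 genes reached 1 in size, where 1.31% of all genes did upwards and 0.349% downwards. At 0.5, ARRDC2 (0.77) and ARRDC4 passed upwards, as did 8.6% of all genes, and none passed downwards, where 4.82% of all genes did.

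The other alpha-arrestins differed from this pattern and from each other. In the authors' deposited table ARRDC2 had log2 fold changes of 0.57 and -0.21. It was above the denominator only in the first numerator. ARRDC1, an adaptor that recruits the ESCRT protein TSG101 to the plasma membrane for the release of vesicles, stood at 0.13 and -0.20 in the authors' deposited table. ARRDC1 and ARRDC2 thus had the same signs, with the smaller value for ARRDC1 in the first comparison. Their ranks from the highest were 3430 and 9352 for ARRDC1, and 121 and 9425 for ARRDC2.

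ARRDC3, an adaptor known for the traffic of the beta-2 adrenergic receptor, had log2 fold changes of 0.36 and 0.49 in the authors' deposited table. Both numerators exceeded the denominator, at ranks 565 and 299. Of the 5 alpha-arrestin genes described here, ARRDC3 alone was higher in the second numerator than in the first, with a log2 ratio of -0.13.

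The genes of the E-box binding factors had smaller values. MLXIP, which encodes MondoA, had log2 fold changes of 0.36 and 0.13 in the authors' deposited table. For MLX, its partner, the authors' deposited table gave -0.10 and 0.0066. The order of libraries for MLXIP was thus the one seen for TXNIP and ARRDC4, at a smaller size, while MLX was nearly level. MLXIPL, the gene of the related factor ChREBP, is no member and stood at 0.15 and 0.03.

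TXN, whose protein is bound by TXNIP, had log2 fold changes of -0.19 and -0.07 in the authors' deposited table. No other member was below the denominator in both numerators. Both values lay within 1 SD over all genes of 0.

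Some of these rows can hold reads of other genes, as no source used here says whether counting used strand. In GENCODE release 29, exons of MLX overlap those of PSMC3IP, on the opposite strand, over 770 bases, and PSMC3IP had log2 fold changes of 0.11 and -0.31. Exons of ARRDC1 overlap AL590627.2, on the same strand, over 183 bases and the antisense gene ARRDC1-AS1 over 29. Those of ARRDC3 overlap ARRDC3-AS1 over 145, and those of ARRDC2 an unnamed gene on the opposite strand over 442. TXN has 7 named pseudogenes, and how reads shared with them were counted is not given. No overlapping exon and no named pseudogene was found for TXNIP, ARRDC4 or MLXIP.

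**Figure D3:**
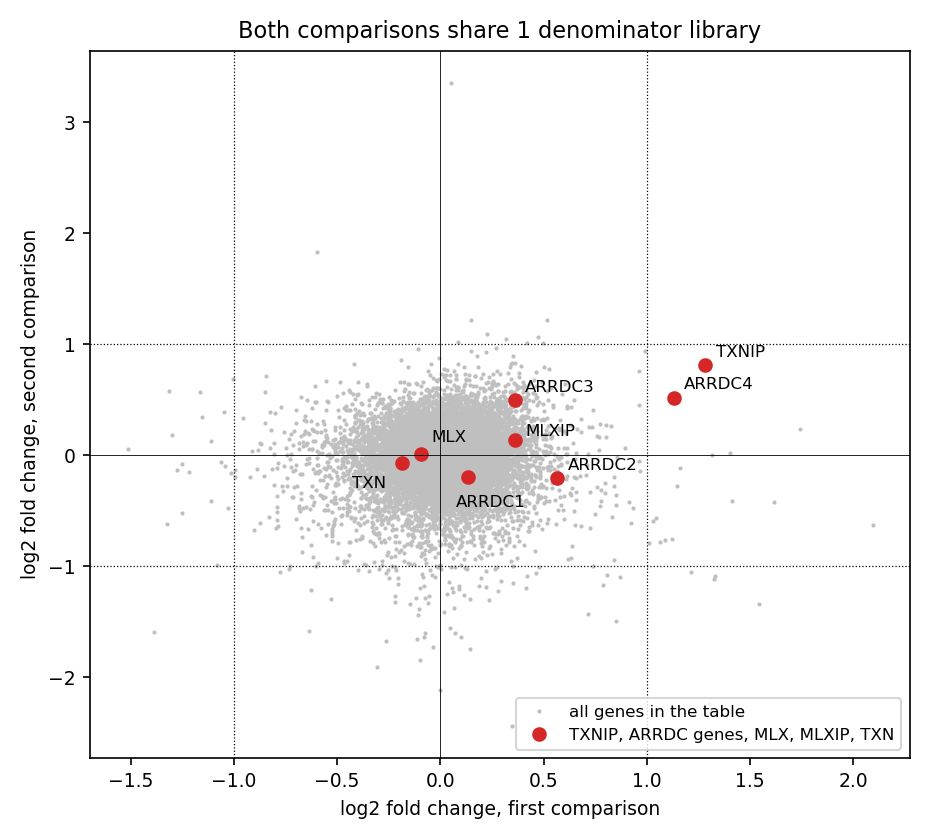
Log2 fold change of every gene in the first (x axis) and second (y axis) comparison, in grey, with the 8 genes in red and dotted lines at 1 and -1. TXNIP (1.28, 0.81) and ARRDC4 (1.13, 0.52) lie at the upper right edge of the grey cloud, while MLX and TXN lie near its centre. Since both axes share a denominator, no relation between them is read from the plot.

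The pattern nearest to that of TXNIP was sought by the Euclidean distance over both log2 fold changes, which covers 3 libraries, among 11688 other genes without small RNA, LINC, LOC or antisense symbols. The nearest was PTBP2, a splicing regulator, at a distance of 0.32, with log2 fold changes of 0.99 and 0.94. RBM14-RBM4, a readthrough row whose reads overlap those of its parent genes, came next at 0.96 and 0.76. ARRDC4 was 3rd, at a distance of 0.33. TXNIP and ARRDC4 were both known to be high when the genes were chosen, so nothing is read from this place. HCN2, a channel gene, was also among the 5 nearest, at 0.74 and 0.40. The other members lay further away, with ARRDC3 at place 116, MLXIP at 516, ARRDC2 at 1239, ARRDC1 at 6350, MLX at 7633 and TXN at 9372.

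Related genes of the pathway were described by 7 lists with 75 genes in the table, and none of the 75 reached 1 in size in either comparison or in the ratio of the numerators. Of all 12040 genes, 41 did in the first comparison, 100 in the second and 200 in the ratio, so a count of 0 among 75 is near the background. In the list of 11 other glucose-responsive genes, those known to answer to MondoA or ChREBP, the median of the first comparison was 0.05, and in the second comparison it was -0.23. RGS16 was the highest of them in both, at 0.40 and 0.22. LDHA, lactate dehydrogenase A, was the lowest in the first at -0.30, and PFKFB3, which makes an activator of glycolysis, in the second at -0.78. Of the 11, 7 lay above 0 in the first comparison, where 56.5% of all genes did, and 3 in the second, where 51.1% did.

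The glucose transporters include SLC2A1, whose product GLUT1 is removed from the surface with the help of TXNIP. SLC2A1 was the lowest of 8 transporter-list genes in the first comparison at -0.37 and stood at 0.11 in the second, so it was lower than the denominator in 1 numerator and higher in the other. SLC2A4RG, a regulator of SLC2A4 that is not itself a transporter, was the highest in the first at 0.31 and the lowest in the second at -0.31, and SLC2A3 the highest in the second at 0.33. The list medians were -0.07 and -0.09.

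The 15 genes of the thioredoxin and glutaredoxin systems had medians of 0.02 and 0.04, close to all genes. GLRX, glutaredoxin, was the lowest in the first comparison at -0.81 and stood at 0.01 in the second. NXN was the highest in the first at 0.22 and the lowest in the second at -0.36, and GLRX2 the highest in the second at 0.57. TXNRD1, the cytosolic reductase of thioredoxin, was at 0.06 and -0.01.

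Among 12 other genes of the E-box binding network the medians were 0.14 and 0.11. MYC was the highest in the first comparison at 0.27 and MXD1 the lowest at -0.28, and in the second MYCL1 was the highest at 0.46 and MXI1 the lowest at -0.29. The 10 genes of NEDD4 family ligases and their adaptors, which bind alpha-arrestins, had medians of 0.03 and 0.25, and 5 of the 10 lay above 0 in the first and 9 in the second comparison, beside 56.5% and 51.1% of all genes. NEDD4L was the highest there at 0.45 and NEDD4 the lowest at -0.01, while in the first WWP2 was the highest at 0.29 and NDFIP2 the lowest at -0.04.

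For 6 other arrestin-fold genes the medians were 0.04 and 0.07. ARRB2, a beta-arrestin gene, was at 0.11 and -0.13, the highest in the first and the lowest in the second, and DSCR3 at -0.06 and 0.21, the reverse. The 13 ESCRT genes had medians of 0.02 and 0.17. VPS28 (0.37) and CHMP4A (-0.30) were the ends of that list in the first comparison and VPS37B (0.52) and HGS (-0.03) in the second, and TSG101, the partner of ARRDC1, was at 0.06 in both.

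**Figure D4:**
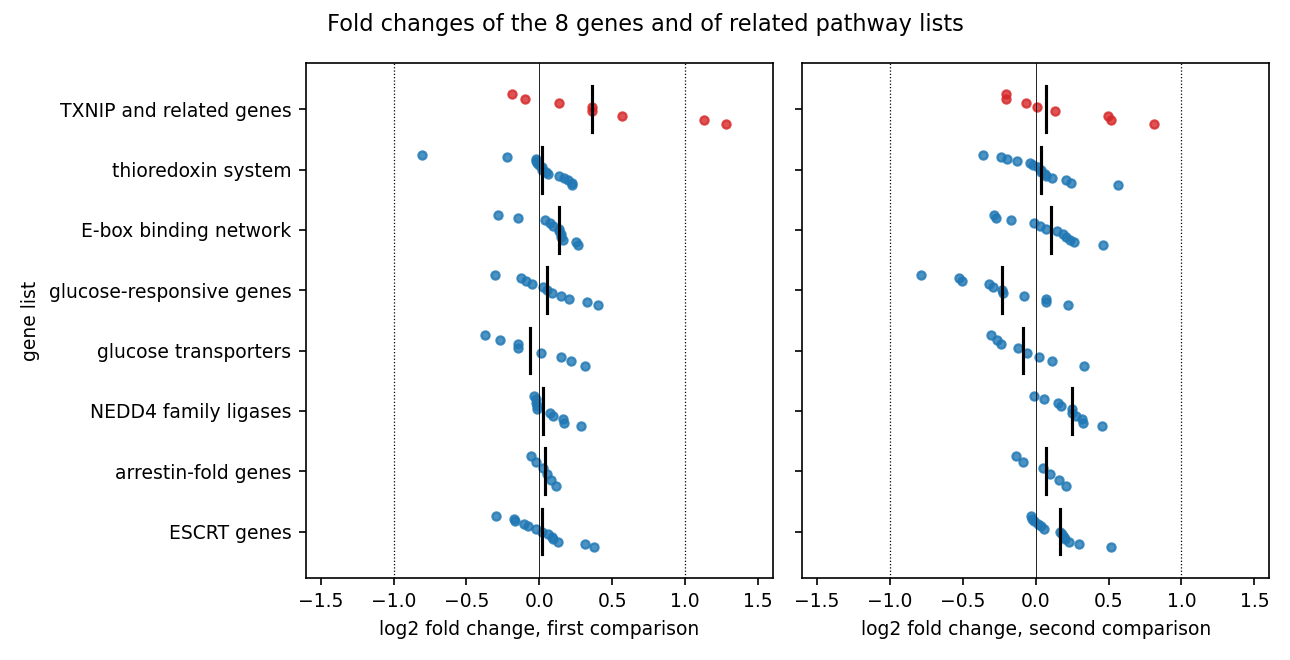
Log2 fold change (x axis) of each gene of the 8 lists (y axis), in the first comparison on the left and the second on the right, with black bars at list medians and dotted lines at 1 and -1. TXNIP and ARRDC4, in red, are the only points past 1, in the first comparison, and no blue point of the 7 pathway lists reaches 1 or -1.

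Of the genes listed by the authors, 15 with TXNIP included had a RefSeq promoter with 2 CACGNG boxes 5 bases apart, and 8633 genes had a promoter in all. The medians of the 15 were 0.01 in the first and 0.05 in the second comparison, beside 0.03 and 0.02 over the 8633. Without TXNIP the 14 others ran from -0.54 to 0.25 in the first and from -0.44 to 0.47 in the second. GFPT1, which encodes the first enzyme of the hexosamine pathway and is named here after its values were seen, was the lowest in the first (-0.54) and the highest in the second (0.47).

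The miR-17 family is shown because TXNIP is its known target and its maturation needs both DROSHA and DICER1. The microRNAs themselves were not measured here. RefSeq on GRCh38.p14 lists 8 mature microRNAs with the seed (bases 2 to 8, in capitals) of miR-17-5p, of which 3 from 3 loci are printed.
hsa-miR-17-5p: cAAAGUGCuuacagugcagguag
hsa-miR-93-5p: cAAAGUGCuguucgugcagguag
hsa-miR-106a-5p: aAAAGUGCuuacagugcagguag

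The site that pairs with this seed, GCACTTT, occurred at 2 places in the 1416 bases of the TXNIP 3' UTR in GENCODE release 29, beginning at bases 795 and 1192. They are shown with the site in capitals, and the first is followed by an A and the second by a G.
TXNIP site at base 795: tgatgttcttaGCACTTTaattcctgtca
TXNIP site at base 1192: tctcagccataGCACTTTgttcactgtcc

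MLXIP held 3 such sites in a 3' UTR of 5535 bases, and ARRDC1, ARRDC2, ARRDC3, ARRDC4, MLX and TXN held none. Of 10365 genes of the table with a 3' UTR of at least 50 bases, 23.3% held at least 1 site, at a median length of 1191 bases. The ARRDC4 3' UTR searched was 2651 bases long. The part of these sites in the fold changes was not tested. A site is a letter match and not a measured binding event.

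Base composition moved with the fold changes across genes. The Spearman correlation of the log2 fold change with the GC content of the transcript was 0.389 in the first comparison, -0.28 in the second and 0.467 for the first minus the second over 10584 genes, which are not independent and come from the same libraries. The median GC content over these 10584 genes was 48.8%, with quartiles of 42.4% and 57.2%. The transcripts of TXNIP (43.9% GC), ARRDC4 (43.4%), TXN (42.8%) and ARRDC3 (37.6%) lay below this median and are called GC-poor here. Those of MLX (51.8%), MLXIP (57.9%), ARRDC2 (60.8%) and ARRDC1 (64.6%) lay above it and are called GC-rich. Of the GC-poor members only ARRDC3 lay below the lower quartile. MLX lay below the upper quartile, and the other GC-rich members above it. In the first comparison GC-poor genes tended to be lower across the table. Of the 4 GC-poor members TXN was below 0 there, while TXNIP, ARRDC4 and ARRDC3 were above it. Of the 4 GC-rich members MLX (-0.10) was below 0, while ARRDC2 (0.57), MLXIP (0.36) and ARRDC1 (0.13) were above it. In the second comparison GC-rich genes tended to be lower. Of the 4 GC-rich members ARRDC1 and ARRDC2 were below 0 there, while MLXIP (0.13) and MLX (0.0066) were above it. Of the 4 GC-poor members TXN (-0.07) was below 0, while TXNIP (0.81), ARRDC4 (0.52) and ARRDC3 (0.49) were above it. In the first minus the second, GC-poor genes tended to be lower. Among GC-poor members TXNIP (0.47) and ARRDC4 (0.61) were above 0 there, and ARRDC3 (-0.13) and TXN (-0.12) below. Among GC-rich members ARRDC2 (0.77), ARRDC1 (0.34) and MLXIP (0.23) were above 0, and MLX (-0.10) below. The part of GC content in these values was not tested.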

How the data were processed

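The deposited table lists 12040 gene symbols, none repeated, for 3 libraries, 1 per group. CASAVA 1.8.2, TopHat2 2.06, Cuffdiff 2.1.1, Cufflinks, SAMtools and the build hg19 appear in the submitters' processing notes, without the role of each. The log2 fold changes were computed and deposited by the authors. They equal the log2 ratio of a numerator to a shared denominator column after adding 1 to each (12040 genes, tolerance 1e-11). These 3 columns of per-sample values carry no name that matches a sample, so they served only to find how the fold changes were made, and no level, ratio of levels or filter on them was used. The planned display of levels was therefore dropped. Depth is unknown, so no interval or floor is given.

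Members and lists were chosen with earlier results of these data known. Named genes were all 8 members, DICER1, DROSHA, the highest and lowest gene of each list in each comparison, and the 5 genes nearest to TXNIP, of which 1 is not reported here. Others (markers, MLXIPL, TXNRD1, TSG101, PSMC3IP, GFPT1) were added for their role or after their values were seen. Alternatives were a threshold of 0.5 and subtraction of the median. The CCAAT, 3' UTR, GC and promoter-group descriptions were chosen after the data were seen. Transcript features came from 1 transcript per symbol. Python 3.11.15 with pandas 2.3.3, NumPy 2.4.6 and SciPy 1.17.1 was used. The count of genes past the threshold was run on simulated data whose changes lay well past it, which checks the code alone. Protein sequences were not used here.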

Additional observations from a re-analysis of the deposited data

How the results depend on the processing

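At a threshold of 0.5, 3 of the 8 genes passed in the first comparison in place of 2. In the second comparison 2 passed in place of 0, and in the ratio of the numerators 2 in place of 0. The calls over all genes went from 41 to 422, from 100 to 954 and from 200 to 1615. Subtracting the median of all genes changed no count of members. It takes the same amount from every gene, 0.030 in the first comparison, 0.0063 in the second and 0.025 in the ratio. Each of the 24 member values and 24 list medians thus moved by less than 0.1 by construction, which says nothing of how firm they are. Settings with other values added to each level, or a floor on the denominator level, were not run, because they need the unnamed columns. No paired analysis was possible because each group has 1 library, and for the same reason leaving out a replicate was not possible. The unknown depth limits every value.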
